A study of Mus musculus with 16 samples.

Results

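Kupffer cells, the resident macrophages that line the liver sinusoids, were compared between livers labelled KO and WT for an endothelial deletion of Zeb2, a zinc finger transcription factor. The comparison used 4 of the 16 libraries of the series, namely the 2 Kupffer cell libraries labelled KO (label numbers 27 and 43) and the 2 labelled WT (31 and 39), chosen by their labels and without regard to any measured value. The mice carried loxP-flanked Zeb2 alleles, in which exon 7 is flanked, and Cdh5-CreERT2, a tamoxifen-dependent recombinase driven by the promoter of VE-cadherin, on an R26R background with an eGFP reporter. Tamoxifen was given at 2 mg per day for 5 days to KO mice and to the WT controls alike, and the controls were littermates without Cre. Males of 8 weeks were used, and mRNA was examined 2 weeks after tamoxifen. The livers were unchallenged, and Kupffer cells were sorted after enzymatic digestion as F4/80+ cells without the ultraviolet autofluorescence of stellate cells. Whether libraries share a mouse is not stated in the labels, so that p-values measure the spread between these libraries, and libraries are called by their labels (WT 31, WT 39, KO 27 and KO 43).

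Kupffer cells clear particles, bacteria and ageing red blood cells from portal blood. Signals from the neighbouring endothelial and stellate cells, among them Notch and BMP ligands, maintain their identity together with the factors LXR-alpha and Id3. When microbial products or damaged cells are sensed, macrophages first transcribe immediate early genes, which encode short-lived transcription factors such as Fos and Jun and the feedback regulators that limit them, and then cytokine, chemokine and adhesion genes, many of them through NF-kB.

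Each Kupffer cell library had between 14775530 and 15326003 reads counted on genes, and between 16214 (KO 43) and 19035 (KO 27) genes with a count. The mean chi-square per gene was 119.5 between the WT libraries and 54.2 between the KO libraries, whereas the correlation of log2 CPM across genes was 0.933 and 0.932. The cells carried the markers of their label. Clec4f, a lectin restricted to Kupffer cells, lay between 11243 and 12929 CPM (counts scaled to the library total) in the 4 libraries and between 41.6 and 654 CPM in the other 12 libraries of the series. Cd5l, a secreted macrophage protein, lay between 7641 and 11104 CPM against 30.5 to 456 CPM. Timd4, a receptor for phosphatidylserine on dying cells, lay between 656 and 1136 CPM against 2.70 to 40.2 CPM. Zeb2 itself was not targeted in Kupffer cells. It was measured at 314 and 299 normalized CPM (CPM after TMM normalization, the scale used from here on unless plain CPM is named) in WT 31 and WT 39, and at 283 and 238 in KO 27 and KO 43, a log2 fold change of -0.23 with an SE of 0.28 and an adjusted p of 0.961 by edgeR. The related factor Zeb1 was measured at 5.73 and 7.94 in the WT libraries and at 9.19 and 14.0 in the KO libraries, without a difference past the threshold (adjusted p of 0.933 by edgeR). In the endothelial libraries, where the deletion was directed, Zeb2 was measured at 106 and 106 plain CPM under the WT label and at 199 and 130 under the KO label, higher in both KO libraries. Reads were summed over whole genes, and the count therefore does not check the deletion or the labels.

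None of the 13867 genes tested passed an adjusted p of 0.05 in edgeR's quasi-likelihood test, the lowest adjusted p being 0.933. An unadjusted p under 0.05 was reached by 706 genes (5.09%), of which 465 (3.35% of genes tested) were higher under the KO label and 241 (1.74%) lower. With a library left out this number was between 515 and 1344, and without KO 27 the excess turned to the lower side, with 482 higher and 809 lower. The other tool, DESeq2, called 75 of 14710 genes (0.51%), 49 higher (0.333%) and 26 lower (0.177%). Libraries of the 2 labels did not overlap for 2560 genes that were higher (18.5%) and 2611 that were lower (18.8%) under the KO label, and these shares are the background for the counts given below. With no gene past the main test, all differences below are given as values, and "higher" and "lower" refer to the KO label against the WT label. The median log2 fold change of all genes tested was -0.02.

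The immediate early genes formed the list with the lowest median. Lists and members were chosen with earlier results of these data known. This rank and the counts of this and later lists are therefore descriptions and no test. Of 35 members, all tested, 23 had a lower and 12 a higher value under the KO label, and the median log2 fold change was -0.61. Libraries did not overlap for 18 lower members (18.8% of all genes) and 8 higher ones (18.5% of all genes), and 14 lower and 3 higher members had an unadjusted p under 0.05 (1.74% and 3.35% of all genes). DESeq2 called 9 members, 8 of them lower (0.51% of all genes were called, 0.177% as lower). Summed over the list, the level was 36884 and 40260 in the WT libraries and 17597 and 11051 in the KO libraries. The median was between -0.64 and -0.37 when each library in turn was left out. The count of lower members with an unadjusted p under 0.05 depended on single libraries and was lowest without KO 43.

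Fos, a subunit of the AP-1 transcription factor (ENSMUSG00000021250, chromosome 12, 85473890 to 85477273, GRCm38), was measured at 4267 and 7507 in WT 31 and WT 39 and at 1068 and 359 in KO 27 and KO 43. Its log2 fold change was -3.04 with an SE of 0.60 (unadjusted p of 0.00209 and adjusted p of 0.933 by edgeR, adjusted p of 4.15e-06 by DESeq2). Both KO libraries lay below both WT libraries, and KO 43 was the lowest. Jun, the partner of Fos in AP-1 (chromosome 4, 95049034 to 95052222), was measured at 2689 and 4083 in the WT libraries and at 1150 and 414 in the KO libraries. The log2 fold change of Jun was -2.11 with an SE of 0.54. Another AP-1 subunit, Junb, was closer between labels, at 2804 and 2236 in WT and 1340 and 1179 in KO. Jund, at 21.4 and 17.8 in WT and 23.0 and 33.3 in KO, and Fosl2, at 76.5 and 62.4 in WT and 69.9 and 68.5 in KO, did not share the lower level of Fos and Jun. Fosb overlapped between labels, at 441 and 756 in WT and 589 and 436 in KO.

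Several zinc finger and CREB-family factors of the list were also lower. Egr1, a growth factor-responsive transcription factor, was measured at 1779 and 2406 in WT and at 701 and 197 in KO, a log2 fold change of -2.22 with an SE of 0.61 that was -3.41 without KO 27 and -1.59 without KO 43. Atf3, a stress-induced factor that represses cytokine genes in macrophages, was measured at 2142 and 2054 in WT and at 1208 and 384 in KO. Ier2, a nuclear immediate early protein (chromosome 8, 84661331 to 84662852), was measured at 978 and 1652 in WT and at 296 and 264 in KO. Its log2 fold change of -2.23 had an SE of 0.36 (adjusted p of 0.933 by edgeR and 4.15e-06 by DESeq2). In all 3 genes the KO libraries lay below the WT libraries, and the KO libraries were nearly equal in Ier2 but not in Egr1 or Atf3. Klf2, a factor that restrains macrophage activation, was measured at 272 and 248 in WT and at 126 and 85.7 in KO. Egr2 overlapped between labels, since KO 27 reached 351 against 348 in WT 31.

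Several feedback regulators of the same response were lower as well. Dusp5, a phosphatase of the list, was not, at 13.1 and 12.4 in WT and 41.0 and 14.2 in KO. Dusp1, the phosphatase that switches off p38 and JNK, was measured at 7341 and 8270 in WT and at 2732 and 2289 in KO, a log2 fold change of -1.64 with an SE of 0.29 (adjusted p of 0.933 by edgeR and 0.000208 by DESeq2). Zfp36, which destabilizes Tnf and other cytokine mRNAs, was measured at 2142 and 2087 in WT and at 884 and 679 in KO. Btg2, an antiproliferative cofactor of mRNA deadenylation, was measured at 2072 and 1940 in WT and at 1042 and 349 in KO, and Sgk1, a serum-induced kinase, at 794 and 688 in WT and 341 and 229 in KO. For Dusp1 and Zfp36 the libraries of a label lay close together and far from those of the other label. The leave-one-out log2 fold change of Dusp1 stayed between -1.78 and -1.52.

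Not all members of the list were lower. Mafk, a small Maf protein that pairs with larger basic leucine zipper factors, was measured at 105 and 116 in WT and at 255 and 264 in KO, a log2 fold change of 1.23 with an SE of 0.27 (adjusted p of 0.933 by edgeR and 0.0289 by DESeq2). Klf10, a TGF-beta-induced factor, was measured at 78.8 and 155 in WT and at 200 and 272 in KO. The orphan nuclear receptor Nr4a3 was measured at 29.3 and 14.6 in WT and at 45.3 and 50.4 in KO, whereas its paralogue Nr4a1 was measured at 4927 and 2795 in WT and at 2756 and 1258 in KO. Maff was measured at 14.3 and 4.53 in WT and at 16.8 and 31.9 in KO, so that the small Maf genes lay opposite to Fos and Jun. Heat shock and chaperone genes, a stress response of another kind, were centred near 0, with 9 higher and 11 lower of 20 tested and a median of -0.07, and Hspa1a overlapped between labels at 140 and 383 in WT and 170 and 118 in KO.

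**Figure D1:**
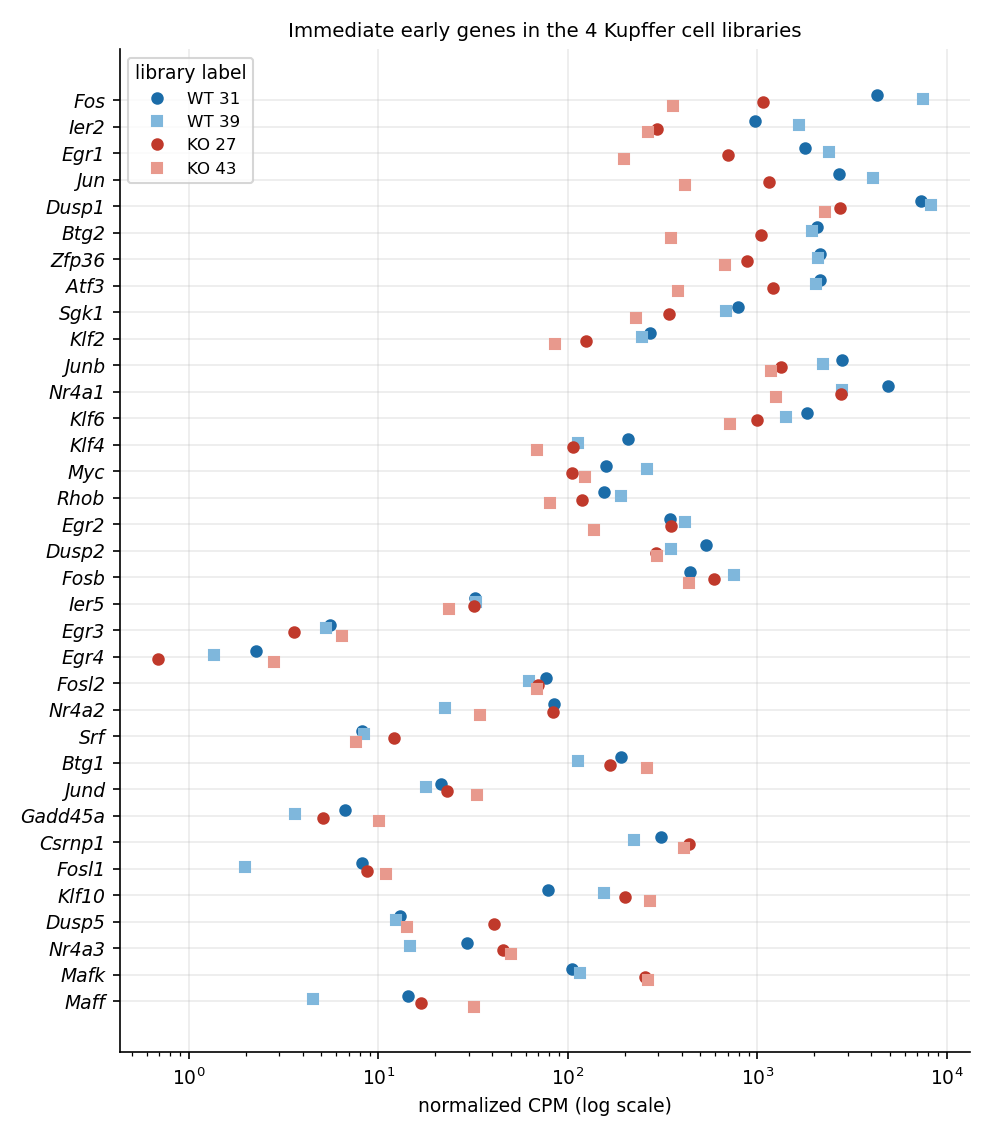
Normalized CPM (log scale) of the 35 immediate early genes in each of the 4 Kupffer cell libraries, ordered from the lowest to the highest log2 fold change. From Fos to Rhob the red and pink KO points lie left of the blue WT points, with KO 43 farthest left in most, and the order turns for Mafk, Nr4a3 and Maff at the bottom.

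Promoters of members on both sides of the comparison were examined for short motifs, since both lists are known for such elements. RefSeq (GRCm38.p6) gave windows of 250 bases before the start for 29 of the 35 immediate early genes and for 35 of the 50 activation genes. Ier2, Vcam1 and Cd83 had no entry. The letters TGACGT, the core of the cAMP response element, were searched on both strands, and overlapping matches were counted once. They were present in 10 of the 29 immediate early windows (34.5%) and in 7.30% of 27018 windows of all genes. The share did not follow the label difference, with 4 of 15 windows of non-overlapping lower members, 3 of 6 of higher members and 3 of 8 of the rest. Windows of Fos and Btg2 are shown because both genes were lower and hold this core in the window, and that of Ccl9, a chemokine, because it was higher and holds an NF-kB motif. Capitals mark the match, all other bases are in lower case, and each sequence runs 5' to 3' on the strand of its gene.
Fos (chr12:85473640-85473889, plus strand): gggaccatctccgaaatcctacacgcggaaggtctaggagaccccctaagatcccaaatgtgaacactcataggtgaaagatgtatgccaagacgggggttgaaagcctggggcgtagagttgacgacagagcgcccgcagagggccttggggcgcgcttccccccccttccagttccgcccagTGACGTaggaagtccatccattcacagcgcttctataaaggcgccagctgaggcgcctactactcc
Btg2 (chr1:134079156-134079405, minus strand): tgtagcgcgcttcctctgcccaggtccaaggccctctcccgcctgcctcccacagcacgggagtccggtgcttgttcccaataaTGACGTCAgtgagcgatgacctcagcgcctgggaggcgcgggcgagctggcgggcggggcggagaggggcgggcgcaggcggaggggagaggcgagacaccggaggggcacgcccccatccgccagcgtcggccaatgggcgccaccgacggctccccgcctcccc
Ccl9 (chr11:83578637-83578886, minus strand): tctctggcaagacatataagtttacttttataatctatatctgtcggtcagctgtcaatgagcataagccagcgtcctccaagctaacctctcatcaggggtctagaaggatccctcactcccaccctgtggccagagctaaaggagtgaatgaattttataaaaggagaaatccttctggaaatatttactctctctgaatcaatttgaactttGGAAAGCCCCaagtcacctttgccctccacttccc
In Fos the match starts 66 bases before the RefSeq start, in Btg2 the core lies on both strands as a palindrome that starts 166 bases before it, and in Ccl9 the match lies on the opposite strand 35 bases before it. None of the 3 windows overlaps an annotated exon. The NF-kB motif was present in 17 of 35 activation windows (48.6%) against 8.24% of all windows, namely in 5 of 13 higher non-overlapping members and 12 of 21 of the others. The CArG box (CC, 6 bases of A or T, GG) was searched as well. It was present in 4 of 29 immediate early windows (13.8%) against 1.6% of all windows. These were 1 of 15 windows of non-overlapping lower members, 1 of 6 of higher members and 2 of 8 of the rest. A match is a string of letters in the window and not a measured site.

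Inflammatory activation genes lay mostly on the higher side. Of 50 members, 49 were tested, 37 with a higher and 12 with a lower value under the KO label, at a median log2 fold change of 0.53. Libraries did not overlap for 18 higher members (18.5% of all genes) and for no lower member (18.8% of all genes), and 7 higher members had an unadjusted p under 0.05 (3.35% of all genes). DESeq2 called 1 member, Il1r2, as higher (0.333% of all genes). The WT libraries differed strongly in this list, with summed levels of 44641 in WT 31 and 22568 in WT 39, against 36560 and 38852 in the KO libraries. The median was 0.99 without WT 31 and 0.20 without WT 39. Both the size of the difference and the count of members with an unadjusted p under 0.05 depended on single libraries.

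Among receptors and antagonists of interleukin 1, Il1r2, the decoy receptor, was measured at 4.33 and 0.868 in WT 31 and WT 39 and at 27.6 and 16.7 in KO 27 and KO 43. Its log2 fold change was 3.10 with an SE of 0.81 (unadjusted p of 0.00779 and adjusted p of 0.933 by edgeR, 0.0132 adjusted by DESeq2), and it was 4.67 without WT 31 and 2.35 without WT 39. Il1rn, the secreted receptor antagonist, was measured at 445 and 159 in WT and at 750 and 905 in KO, a log2 fold change of 1.45 with an SE of 0.51 that was 2.39 without WT 31 and 0.89 without WT 39. Both inhibitors were higher in each KO library than in each WT library. The agonist Il1b overlapped between labels, at 7031 and 2675 in WT and 3410 and 2040 in KO, with a log2 fold change of -0.83 that was 0.04 without WT 31. Il1a, at 2877 and 1330 in WT and 2487 and 2184 in KO, also overlapped.

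Cytokines and chemokines were divided into members that were higher without overlap and members that overlapped, and none was lower without overlap. Cxcl3 was measured at 4.04 and 0.124 in WT and at 5.54 and 16.7 in KO. Ccl3 was measured at 352 and 188 in WT and at 359 and 455 in KO. Il6 was measured at 422 and 111 in WT and at 116 and 128 in KO, and its log2 fold change of -1.13 was 0.15 without WT 31. Tnf overlapped completely, at 947 and 587 in WT and 603 and 928 in KO. The monocyte-attracting chemokines Ccl7, at 264 and 51.6 in WT and 289 and 390 in KO, and Ccl2, at 496 and 164 in WT and 523 and 580 in KO, were highest in the KO libraries, although WT 31 lay near KO 27. Ccl9 was measured at 39.8 and 49.5 in WT and at 81.5 and 57.6 in KO. The interferon-induced chemokine Cxcl10 was measured at 338 and 133 in WT and at 137 and 107 in KO, and the neutrophil attractants Cxcl1 and Cxcl2 overlapped between labels. WT 31 alone was high for Il6, Cxcl10 and Il1b.

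The NF-kB subunits and feedback genes included some that were close between replicates. Rel, the c-Rel subunit, was measured at 204 and 220 in WT and at 349 and 416 in KO, a log2 fold change of 0.85 with an SE of 0.28. Nfkb1, the p105 precursor, was measured at 142 and 87.9 in WT and at 168 and 287 in KO. Socs3, a feedback inhibitor of cytokine receptors, was measured at 308 and 346 in WT and at 482 and 657 in KO, and Gadd45b at 312 and 125 in WT and 374 and 485 in KO. The inhibitor gene Nfkbia overlapped, at 6236 and 3185 in WT and 3412 and 3580 in KO. Rel and Socs3 were similar in both WT libraries, in contrast to Nfkb1 and Gadd45b.

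The surface and enzyme genes of the list were measured as follows. Cd83, a maturation marker, was measured at 3317 and 2073 in WT and at 4842 and 4703 in KO, a log2 fold change of 0.82 with an SE of 0.33 that was 0.52 without WT 39. Nlrp3, the sensor of an inflammasome, was measured at 485 and 580 in WT and at 924 and 746 in KO. Ptgs2, the inducible cyclooxygenase, was measured at 5.29 and 16.7 in WT and at 22.8 and 27.1 in KO. Nos2, the inducible nitric oxide synthase, had no count in either WT library and lay at 1.38 and 2.33 in the KO libraries, at least 6.81-fold higher in the lower of these libraries when the WT mean is set to the level of 3 counts per library. All of these separated by label without overlap. The co-stimulatory genes Cd86, at 431 and 428 in WT and 424 and 612 in KO, and Cd40, at 174 and 66.2 in WT and 114 and 278 in KO, overlapped.

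Of 47 adhesion genes, which correspond to 48 identifiers because Itgam has 2, 44 identifiers were tested. The median log2 fold change was 0.10, and 24 were higher and 20 lower. Libraries did not overlap for 14 higher members (18.5% of all genes) and 6 lower ones (18.8% of all genes). An unadjusted p under 0.05 was reached by 4 higher members and no lower member (3.35% and 1.74% of all genes). DESeq2 called 2, Vcam1 and Itga5, both as higher (0.333% of all genes). The list as a whole was therefore centred near the other genes, with a few members far from it. The identifiers not tested were those of Itga2, Itgb8 and Itgad and the second one of Itgam, which did not pass the filter on low counts.

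Vcam1, the receptor for the integrin VLA-4 and in liver macrophages a surface adhesion molecule (chromosome 3, 116109949 to 116129688), was measured at 575 and 496 in WT 31 and WT 39 and at 1829 and 1878 in KO 27 and KO 43. The log2 fold change was 1.79 with an SE of 0.29 (unadjusted p of 0.000656 and adjusted p of 0.933 by edgeR, 1.92e-05 adjusted by DESeq2). Libraries of the same label were almost equal, and leaving out each library in turn gave between 1.68 and 1.91. Itga5, the alpha chain of the fibronectin receptor (chromosome 15, 103344286 to 103366763), was measured at 163 and 50.4 in WT and at 419 and 685 in KO, a log2 fold change of 2.37 with an SE of 0.60 (adjusted p of 0.933 by edgeR and 0.00246 by DESeq2). Its beta chain Itgb1 was measured at 144 and 398 in WT and at 385 and 476 in KO and overlapped. Its ligand Fn1 was measured at 72.3 and 509 in WT and at 307 and 142 in KO and overlapped as well.

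The remaining adhesion genes with an unadjusted p under 0.05 were Cd36 and Emb. Cd36, a scavenger receptor for thrombospondin and oxidized lipids, was measured at 196 and 152 in WT and at 211 and 737 in KO, so that KO 43 set the difference and the log2 fold change was 0.26 without it. Emb, an immunoglobulin-family glycoprotein, was measured at 5.29 and 3.97 in WT and at 15.0 and 10.0 in KO. Among integrins of leukocytes, Itgal was measured at 649 and 635 in WT and 581 and 620 in KO, Itgb2 at 1075 and 975 in WT and 927 and 1114 in KO, and Itgax at 2.72 and 8.00 in WT and 14.1 and 14.3 in KO. Itgb7 was measured at 180 and 177 in WT and at 96.1 and 131 in KO, a log2 fold change of -0.65 with an SE of 0.29. Icam1, a ligand of leukocyte integrins, overlapped at 1837 and 707 in WT and 1815 and 2489 in KO.

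**Figure D2:**
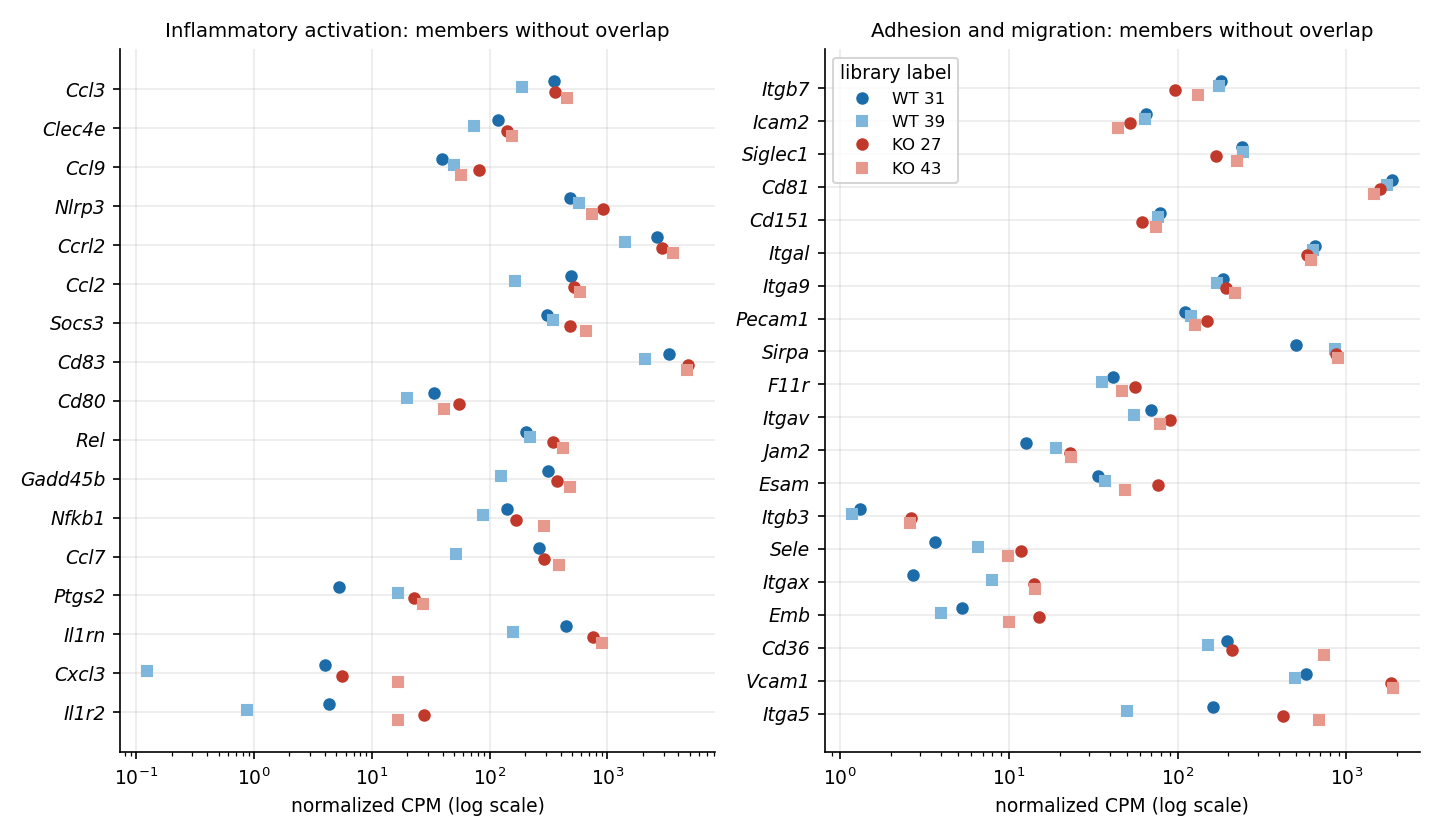
Normalized CPM (log scale) in each Kupffer cell library for the inflammatory activation genes (left) and the adhesion genes (right) whose libraries do not overlap between labels, without Nos2, which has no count in WT. Vcam1 shows a wide gap with equal libraries within each label, whereas for Ccl2, Ccl3 and Ccl7 the WT 31 point lies next to KO 27.

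Kupffer cell identity genes were high in all 4 libraries. Of 26 genes, all tested, 6 were higher and 20 lower, at a median log2 fold change of -0.22, and 7 lower members (18.8% of all genes) and no higher one did not overlap between labels. Id1 was among the members with an unadjusted p under 0.05 and was called by DESeq2. The median was -0.03 without WT 31 and -0.43 without WT 39. Clec4f was measured at 13751 and 12287 in WT and at 11149 and 11383 in KO, a log2 fold change of -0.21 with an SE of 0.27, and Cd5l at 12163 and 9235 in WT and 7290 and 10901 in KO. Timd4 overlapped between labels, at 1244 and 726 in WT and 626 and 816 in KO. Csf1r, the receptor for the survival factor CSF1, was measured at 3843 and 5826 in WT and 5936 and 5306 in KO, and Vsig4, a complement receptor, at 4504 and 3588 in WT and 3487 and 3515 in KO.

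In the identity list, several transcriptional regulators and the complement component C6 were lower without overlap, whereas Marco overlapped between labels. C6 was measured at 2243 and 1772 in WT and at 1158 and 1595 in KO. Maf, a basic leucine zipper transcription factor, was measured at 69.6 and 60.2 in WT and at 46.4 and 26.8 in KO. Id1, a target of BMP signalling, was measured at 92.6 and 295 in WT and at 51.7 and 27.4 in KO, a log2 fold change of -2.29 with an SE of 0.62 (adjusted p of 0.933 by edgeR and 0.00807 by DESeq2). The value was -1.23 without WT 39, the higher WT library, and -2.89 without WT 31. Id3, which Kupffer cells need for their differentiation, was measured at 3503 and 2197 in WT and at 1665 and 1414 in KO. Maf, Id1 and Id3 were lower in each KO library than in each WT library. Marco, a scavenger receptor for bacteria (chromosome 1, 120474538 to 120505024), was measured at 10037 in WT 31 but at 524 in WT 39, 639 in KO 27 and 373 in KO 43. Its log2 fold change of -3.38 therefore rested on WT 31 and was -0.04 without that library.

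Signalling components of the niche and metabolic genes showed single members apart from lists that were centred near the other genes. Of 20 niche receptors and their Smad and Notch partners, 13 were higher and 7 lower (median 0.18). Smad7, the inhibitory Smad that TGF-beta and BMP induce, was measured at 10.4 and 11.9 in WT and at 3.40 and 5.14 in KO, a log2 fold change of -1.39 with an SE of 0.52. Eng, a co-receptor for BMP9 that is also among the endothelial markers described below, was measured at 180 and 201 in WT and at 401 and 245 in KO. Whether its level came from endothelial RNA was not tested. LXR-alpha and its targets were 9 higher and 7 lower of 16 (median 0.06). Pltp, the phospholipid transfer protein, was measured at 3081 and 1894 in WT and at 1426 and 1534 in KO, and Apoe at 32386 and 29907 in WT and 32451 and 36106 in KO. Of 21 iron and haem handling genes 12 were higher and 9 lower (median 0.03). Slc11a2, the endosomal iron transporter DMT1, was measured at 49.2 and 36.5 in WT and at 101 and 141 in KO, an adjusted p of 0.933 by edgeR and 0.025 by DESeq2. The iron exporter Slc40a1 was lowest in WT 31, at 1711, and lay at 6135, 4860 and 4147 in the other 3 libraries.

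The remaining macrophage lists had medians between -0.24 and 0.34. Of 32 interferon-stimulated genes 19 were higher and 13 lower (median 0.05), and Oasl1 was measured at 36.0 and 12.5 in WT and at 116 and 75.2 in KO, a log2 fold change of 1.98 with an SE of 0.55. Of 19 MHC genes 5 were higher and 14 lower (median -0.24), and none separated by label. Of 22 alternative activation genes 15 were higher and 7 lower (median 0.34). Trem2, a lipid receptor of macrophages, was measured at 19.5 and 11.7 in WT and at 6.04 and 3.02 in KO, and Cd209f stood at 115 in KO 27 and at 3.82, 12.9 and 5.00 in the other libraries. Scavenger and efferocytosis receptors (12 higher and 13 lower of 25, median -0.16) and complement genes (8 higher and 12 lower of 20, median -0.16) showed no common direction, and Mrc1, C1qb and C1qc overlapped between labels. Of 24 proliferation genes 16 were higher and 8 lower (median 0.34). Mcm6, a subunit of the replicative helicase, was measured at 28.9 and 56.4 in WT and at 64.9 and 87.8 in KO.

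**Figure D3:**
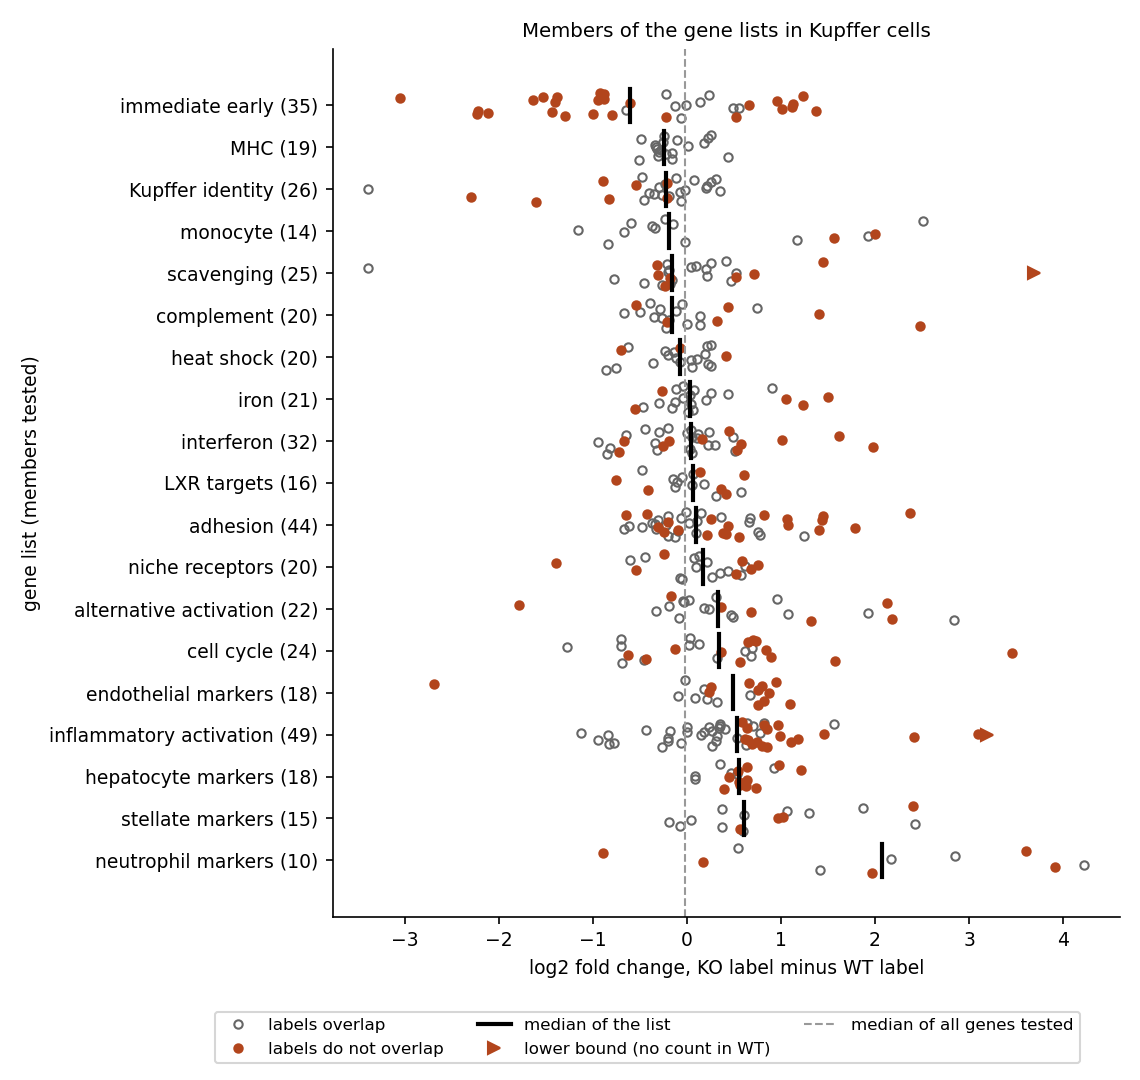
Log2 fold change (KO minus WT label) of each tested member of 19 gene lists in Kupffer cells, with black bars for list medians and a dashed line for the median of all genes tested (-0.02). Immediate early genes reach furthest to the left as a group (median -0.61), inflammatory activation genes lie to the right (median 0.53), and triangles mark Scara5 and Nos2, which had no count in WT, at the lower bound taken from the KO mean.

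RNA of other liver cells was present in the Kupffer cell libraries, in amounts that differed between libraries of the same label as well as between labels. The 829 hepatocyte-enriched genes were defined from hepatocyte and stellate cell libraries alone (at least 10 CPM in the mean of the WT hepatocyte libraries and at least 8 times the mean of the stellate cell libraries). Their median level was 5.47% and 8.68% of that in WT hepatocytes in WT 31 and WT 39, and 9.33% and 11.9% in KO 27 and KO 43 after TMM normalization. On plain CPM the values were 4.99% and 9.14% in WT and 9.78% and 11.7% in KO. On both scales WT 39 lay closer to KO 27 than to WT 31. In the Kupffer cell comparison 805 of these genes were tested. Of them 667 were higher and 138 lower, at a median log2 fold change of 0.53. Such genes can vary together with the hepatocyte RNA of a library and are not independent observations. An unadjusted p under 0.05 by edgeR was reached by 65 higher and 5 lower ones (3.35% and 1.74% of all genes). Libraries did not overlap for 308 higher and 31 lower ones (18.5% and 18.8% of all genes). The other 13062 genes had a median of -0.05. All 18 hepatocyte markers were higher, 11 of them without overlap (18.5% of all genes). Alb, the most abundant plasma protein, was measured at 3600 and 4198 in WT and at 4854 and 5800 in KO. Whether more hepatocytes or more hepatocyte RNA per sorted cell were present cannot be told apart. The part of hepatocyte RNA in the differences above was not tested. With those genes left out, no gene passed the threshold, as in the main test, and the immediate early median was -0.57. These values cannot show such a part, because the immediate early list holds none of those genes and no gene had passed before.

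Sinusoidal endothelial markers reached a median of 2.96% and 3.22% of their level in WT endothelial cells in the WT libraries and 4.82% and 3.96% in the KO libraries (plain CPM). Of 18 markers, 15 were higher and 3 lower. Kdr, the VEGF receptor VEGFR2, was measured at 30.7 and 54.9 in WT and at 98.1 and 84.8 in KO, whereas Wnt2, an angiocrine Wnt ligand, was measured at 7.79 and 21.2 in WT and at 3.65 and 0.822 in KO. Stellate cell markers reached 0.416% and 0.384% in WT and 1.20% and 0.634% in KO, with 13 higher and 2 lower of 15, and only Bmp5 in KO 43 had no count. Col1a2, a chain of type I collagen, stood at 54.7 in KO 27 and at 4.48, 5.89 and 1.03 in the other libraries. Monocyte markers did not share this direction (5 higher and 9 lower of 14, median -0.19), and their most abundant member, Lyz2, the gene of lysozyme, was measured at 19174 in WT 31 and between 7126 and 7768 in the other libraries.

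Neutrophil genes were highest in KO 27. Of 13 neutrophil genes, 10 were tested, 9 were higher and 1 lower (median 2.07), and their summed level was 165 and 148 in WT, 388 in KO 27 and 139 in KO 43. Ngp, a neutrophil granule protein, was measured at 60.9 in KO 27 and at 0.441, 2.91 and 2.74 in the other libraries. Of the defining markers, Ly6g lay at 0.755 in KO 27 and at 0.372 in WT 39 and had no count in WT 31 and KO 43, whereas Ltf, the gene of lactoferrin, lay at 62.7 in KO 27 and between 0 and 0.367 elsewhere. Pf4, a platelet and megakaryocyte chemokine, was measured at 45.3 and 30.6 in WT and at 126 and 57.8 in KO, while the platelet markers Treml1, Gp1bb and Gp6 had no count in at least 2 of the 4 libraries. The erythroid genes were highest in WT 31 (811 summed) and lay at 198 in WT 39, 291 in KO 27 and 551 in KO 43. T and NK cell markers (4 higher and 8 lower of 12), B and plasma cell markers (8 higher and 3 lower of 11) and dendritic cell markers (6 higher and 4 lower of 10) showed no separation common to the list, and Eomes had no count in any library. Biliary markers were higher in 6 of 7 (median 0.30) and summed to 151 and 177 in WT and 250 and 147 in KO.

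**Figure D4:**
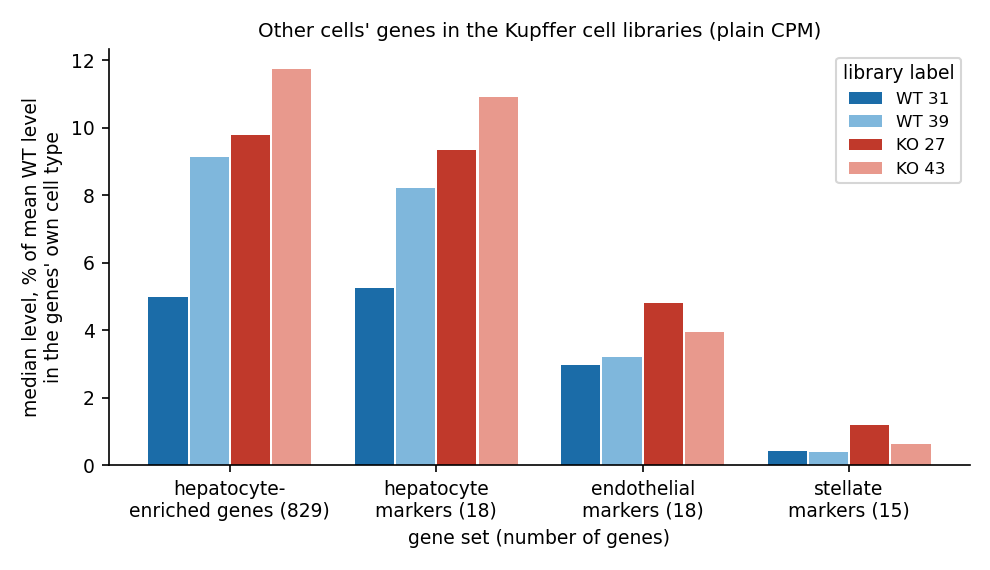
Median level of genes of other liver cells in each Kupffer cell library, as a percentage of the mean WT level in the cell type that the genes mark (plain CPM, no error bars because each bar is 1 library). Hepatocyte-enriched genes stand at 4.99% and 9.14% in the WT libraries and at 9.78% and 11.7% in the KO libraries, and endothelial and stellate markers are highest in KO 27.

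Most of the genes farthest apart across the whole table had low counts, Fos being an exception. Of those with at least 5 normalized CPM in the mean of a label and an unadjusted p under 0.05, the highest was Prg2, an eosinophil granule protein, with no count in either WT library and 48.2 and 1.99 in KO 27 and KO 43 (at least 9.78-fold higher against 3 counts per library when taken from KO 43, the mean being carried by KO 27). Ppfia3, a liprin of synaptic scaffolds, was absent from WT and lay at 3.40 and 8.15 in KO (at least 16.7-fold higher from the lower of these libraries). Cpxm1, a carboxypeptidase-like protein, was measured at 0.0735 and 0.062 in WT and at 8.62 and 5.55 in KO, and Olfml2b at 0 and 0.062 in WT and 2.27 and 14.3 in KO. Crp, an acute phase protein of hepatocytes, was measured at 0.367 and 1.12 in WT and at 3.46 and 22.6 in KO. Cd177 was measured at 10.6 in KO 27 and 1.16 in KO 43, Cep170b at 1.57 and 9.94 and 4930427A07Rik at 6.23 and 4.80, and none of the 3 exceeded 0.514 in a WT library.

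On the lower side the list comprised Fos and 7 genes of lower abundance, among them the zinc finger genes Zfp169, Zfp113 and Zfp790. The non-coding gene Gm26522 was measured at 24.0 and 54.9 in WT and at 5.35 and 2.88 in KO, a log2 fold change of -3.26 with an SE of 0.58. Alkbh4, a dioxygenase, was measured at 11.3 and 20.5 in WT, at 2.20 in KO 27 and without a count in KO 43. Gm26802 and Stxbp4 were measured at 1.91 and 10.0 and at 5.36 and 6.32 in WT, and at 0.818 and 0.0685 and at 1.20 and 0.137 in KO. The lowest and highest genes of the DESeq2 calls were likewise without a count in a label, with Gm26742, Zfp94 and Wnt9b at least 4.47-fold, 10.1-fold and 10.8-fold lower and Aifm3 and Actg2 at least 9.599-fold and 15.8-fold higher, each from the lower library of the label with counts. Wnt9b, a Wnt ligand of liver endothelium, was measured at 2.13 and 4.34 in WT.

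Some genes with higher counts, chosen after their values were seen, were called by DESeq2 and, without the filter on low counts, by edgeR, but not by the main test. Plek, a substrate of protein kinase C in haematopoietic cells, was measured at 395 and 373 in WT and at 1180 and 1650 in KO, a log2 fold change of 1.88 with an SE of 0.31 (adjusted p of 0.933 by edgeR and 3.36e-05 by DESeq2). Clic4, an intracellular chloride channel protein, was measured at 118 and 115 in WT and at 340 and 534 in KO. Steap4, a metalloreductase, was measured at 13.7 and 12.8 in WT and at 72.6 and 48.8 in KO. For these 3 genes the WT libraries were almost equal and both KO libraries lay above them.

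Whether the label difference in Kupffer cells departed from that in the other cell types was tested as an interaction term over all 16 libraries and 17214 genes. Against endothelial cells 357 genes (2.07%) passed an adjusted p of 0.05, against stellate cells 102 (0.593%) and against hepatocytes 2 (0.0116%), which were Mical1 and Gucy1a3. Hepatocyte-enriched genes, a set of 829 in the whole table, were 233 of the 357 and 93 of the 102. They were chosen in part for low levels in the stellate cell libraries, so that their calls against stellate cells draw on values that the rule used. The median level of these genes went the other way with the label in endothelial libraries (11.1% and 22.9% in WT, 3.32% and 2.21% in KO, plain CPM) and in stellate libraries (3.68% and 7.53% in WT, 0.746% and 1.22% in KO). With hepatocyte-enriched genes left out, 42, 0 and 2 genes passed. Without each of the 8 Kupffer and endothelial libraries in turn the count against endothelial cells was between 1 (without EC KO 46) and 569 (without KO 27) and was 362 without EC WT 34.

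Members of the lists past this threshold against endothelial cells were Fos, Dusp1, Ier2 and Id3, the stellate marker Ngfr, the biliary marker Sox9, the complement genes C3 and Serping1 and 15 of 18 hepatocyte markers. Fos had a log2 fold change of -3.01 in Kupffer cells (SE 0.57) and of 0.60 in endothelial cells (SE 0.53) in this fit, a difference of -3.60 with an SE of 0.77 and an adjusted p of 0.0365 by edgeR. Dusp1 differed by -2.02 (adjusted p of 0.0373), Ier2 by -2.18 (0.0355) and Id3 by -1.98 (0.0403). Each of the 4 lost the call when hepatocyte-enriched genes were left out, with adjusted p between 0.0638 and 0.0755 and differences between -3.63 and -1.98, and each lost it without at least 6 of the 8 libraries in turn. In stellate cells and hepatocytes the log2 fold changes of Fos were 0.21 and -0.92. Neither of these cell types gave an interaction past the threshold for Fos, with adjusted p of 0.082 and 0.537. Medians of the immediate early list were -0.60 in Kupffer cells, -0.39 in endothelial cells, -0.24 in stellate cells and -0.19 in hepatocytes, and those of the activation list were 0.53, -0.27, -0.74 and -0.19.

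Vcam1 had a log2 fold change of 1.80 in Kupffer cells, -1.03 in endothelial cells and -1.26 in stellate cells in the same fit, and the interactions had adjusted p of 0.056 and 0.072. Levels of Fos on plain CPM were between 355 and 7899 in Kupffer cells, 4628 and 13719 in endothelial cells, 11224 and 14713 in stellate cells and 489 and 1514 in hepatocytes. The KO-labelled Kupffer cell libraries thus fell into or below the range of hepatocytes for this gene, and those labelled WT into or next to that of endothelial cells.

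**Figure D5:**
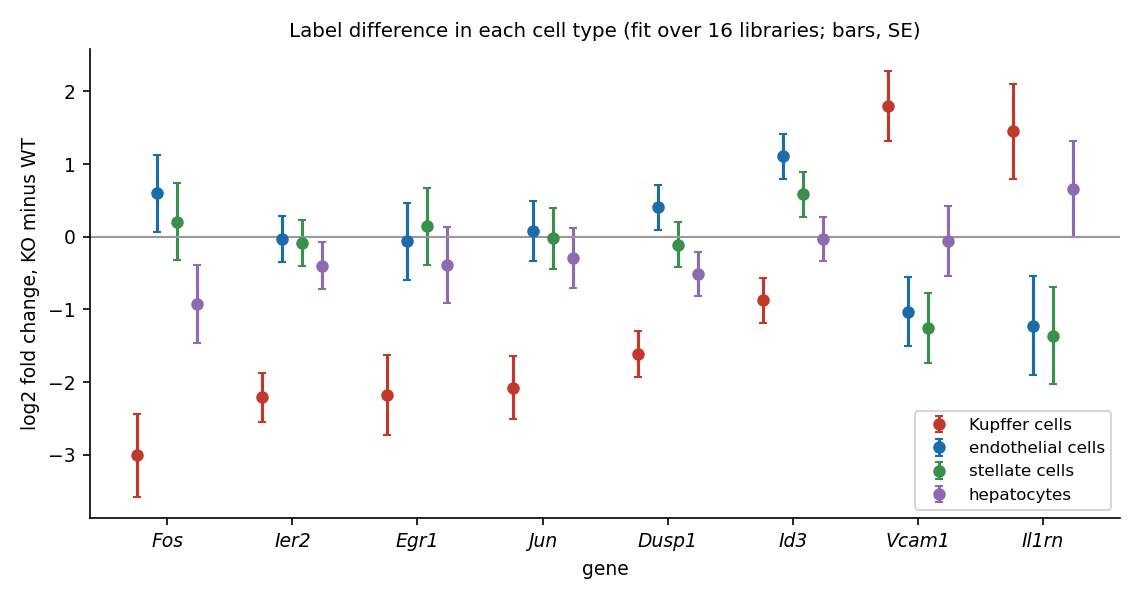
Log2 fold change (KO minus WT label) of 8 genes in each cell type, from the fit over 16 libraries, with bars of 1 SE. The Kupffer cell points lie lowest for Fos, Ier2, Egr1, Jun, Dusp1 and Id3 and highest for Vcam1 and Il1rn, and of these 8 genes Fos, Ier2, Dusp1 and Id3 passed the interaction test against endothelial cells.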

How the data were processed

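RNA of sorted Kupffer cells, endothelial cells, stellate cells and hepatocytes was sequenced in 16 libraries, 2 per cell type and label. The authors deposited raw counts of reads per Ensembl mouse gene, 1 table per library, without normalization. Per the labels, Trimmomatic 0.32, HISAT2 2.1.0, HTSeq 0.9.1 and edgeR were used with GRCm38, whereas the annotation release and the strand setting are not given in the sources used here. Without the strand setting, reads of overlapping antisense genes cannot be told apart. The descriptions of the series and of its samples name different library preparations (Smart-seq2 and TruSeq stranded mRNA), and which of these was used is not settled here. GENCODE vM21 holds 98.9% of the 47729 identifiers, and positions were taken from it. The summary lines of the counter were left out.

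Kupffer cell libraries labelled KO were compared with those labelled WT by edgeR 4.0.16 in R 4.3.3 (filterByExpr, TMM, quasi-likelihood test, Benjamini-Hochberg adjusted p under 0.05). The biological coefficient of variation was 51.0%. The SE of a log2 fold change was derived from the F statistic of this test. It is the absolute log2 fold change divided by the square root of F. Normalized CPM are counts divided by the TMM-scaled library total. The scripts were tested on simulated data. A level of 3 counts per library was taken as the floor, 0.203 normalized CPM in WT and 0.197 in KO, which covers counting error only. Fold changes against a label without counts are bounds against this floor. Interactions of label with cell type were fitted over 16 libraries, which may share livers.

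Gene lists were written by hand, and members and lists were chosen with earlier results of these data known. Genes are named by a rule: Zeb2, Zeb1 and the markers, the 8 highest and 8 lowest fold changes (symbol, mean of at least 5 normalized CPM in a label, no overlap, unadjusted p under 0.05), the 3 highest and 3 lowest of the DESeq2 calls, and in each list the highest, lowest, most abundant and non-overlapping members. Other genes are named as exceptions, and 1 gene is not reported here. The counts of genes, the medians and counts of 4 lists (immediate early, activation, adhesion, identity) and 56 genes were computed again with RLE size factors, with DESeq2 1.42.0, with a joint fit of all 16 libraries, without a filter, with a minimum of 10 counts per library, without hepatocyte-enriched genes and without each library. Interactions were computed again with RLE size factors and without hepatocyte-enriched genes, and against endothelial cells also without each library, which was added after the values were seen. The level of hepatocyte-enriched genes was also taken on plain CPM. Promoters are RefSeq GRCm38.p6 windows. Figures used matplotlib 3.10.9 under Python 3.11.15.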

Additional observations from a re-analysis of the deposited data

Results flagged for a closer look

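The results below differed between cell types by the interaction test over 16 libraries (edgeR, adjusted p under 0.05). The difference of the label effect passed this test for 357 genes between Kupffer and endothelial cells, for 102 between Kupffer and stellate cells and for 2 between Kupffer cells and hepatocytes. Among the list members against endothelial cells were 15 hepatocyte markers, and the differences of log2 fold changes were -3.60 for Fos, -2.18 for Ier2, -2.02 for Dusp1, -1.98 for Id3, 4.08 for C3, 2.66 for Serping1, 4.53 for Ngfr and 3.09 for Sox9. Against stellate cells they were 5 hepatocyte markers and Cdh1 (9.90), a gene without a count in both KO-labelled stellate cell libraries, so that its fitted difference depends on the prior count. Against hepatocytes they were Gucy1a3 (4.05) and Mical1 (8.89), and Mical1 had no count in both KO-labelled hepatocyte libraries. The level of hepatocyte-enriched genes was higher under the KO label in Kupffer cells and lower in endothelial and stellate cells, and its part in these differences was not tested beyond leaving those genes out.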

How the results depend on the processing

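The count of genes past the adjusted threshold was 0 in the main test and with RLE size factors, a minimum of 10 counts per library, a joint fit of the 16 libraries and hepatocyte-enriched genes left out, 75 with DESeq2, 159 without the filter on low counts, and between 0 and 12 with a library left out (12 without KO 43, among them the granulocyte genes Prg2, Ngp, Mpo, Ltf, Epx and Cd177). Unadjusted p under 0.05 was reached by 706 genes, by 1432 without the filter, by 1416 in the joint fit, and by 515 to 1344 with a library left out. Without KO 27 fewer of these genes were higher than lower (482 and 809). The medians of the immediate early, activation, adhesion and identity lists kept their sign under all alternatives run, and with a library left out they ranged from -0.64 to -0.37 (immediate early), 0.16 to 0.99 (activation), 0.074 to 0.26 (adhesion) and -0.43 to -0.03 (identity). Members with an unadjusted p under 0.05 numbered 11 with DESeq2 and 17 without the filter in the activation list, and with a library left out 5 to 14 (immediate early, lower), 2 to 28 (activation, higher), 3 to 7 (adhesion, higher) and 2 to 10 (identity, lower). Of 56 genes followed through the alternatives, 53 kept their direction in all of them. Many of the 56 were named because their libraries did not overlap between labels. Leaving out a library could therefore hardly turn their direction, and the count of 53 is no measure of stability. All 3 exceptions overlapped between labels. The exceptions were Cd5l, whose log2 fold change was 0.019 without KO 27 and down to -0.57 without KO 43, Il6 (0.15 without WT 31, -1.80 without WT 39) and Il1b (0.035 without WT 31, -1.37 without WT 39). The interaction counts with hepatocyte-enriched genes left out were 42, 0 and 2 against endothelial cells, stellate cells and hepatocytes, and with a library left out 1 to 569 against endothelial cells. Where a result moved, the cause was not tested. No paired analysis was possible because the labels give no replicate number that is shared between groups. With 2 libraries per label the depth was not varied, and differences of genes near 3 counts are not detectable at this depth.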
